A study of Homo sapiens with 6 samples.

Results

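Condensins are the protein complexes that fold and compact chromosomes for cell division. The genes described here are the 8 that encode the subunits of condensin I and condensin II, namely *SMC2*, *SMC4*, *NCAPD2*, *NCAPG*, *NCAPH*, *NCAPD3*, *NCAPG2* and *NCAPH2*. They were found by gene symbol among 58735 annotated genes, and all 8 were among the 13621 genes expressed highly enough to be tested. The measurement was bulk RNA sequencing of TPC-1, a human papillary thyroid carcinoma cell line. The 3 control libraries (TPC-1) came from the untransduced wild strain, and the other 3 libraries (RRM2-OE-TPC-1) came from TPC-1 cells that carried a lentiviral *RRM2* transgene under a CMV promoter and had been selected with puromycin. *RRM2* encodes the small subunit of ribonucleotide reductase, the enzyme that makes deoxyribonucleotides for DNA synthesis. The comparison asks which mRNAs differ when *RRM2* is overexpressed. Because the control was the wild strain and not an empty vector, *RRM2* overexpression cannot be told apart from transduction and selection.

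Each condensin holds a pair of SMC ATPases, SMC2 and SMC4, which form a long coiled-coil ring shared by both complexes. A kleisin subunit closes the ring, and 2 HEAT-repeat subunits bind to the kleisin. The kleisin is NCAPH in condensin I and NCAPH2 in condensin II, and the HEAT-repeat subunits are NCAPD2 and NCAPG in condensin I and NCAPD3 and NCAPG2 in condensin II. Condensin II is nuclear throughout the cell cycle and starts chromosome condensation in prophase, whereas condensin I reaches the chromosomes after the nuclear envelope breaks down. Several subunit genes are transcribed mainly in dividing cells, like other genes of the G2 and M phases, whose promoters often carry a cell cycle homology region (CHR) or CCAAT boxes.

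The promoter windows of 7 of the 8 genes were present in the RefSeq table used (GRCh38.p14), each running from 250 bases before a transcription start to 50 bases from it. *SMC2*, *SMC4* and *NCAPD3* had more than 1 window, giving 10 windows in all, and *NCAPH2* had no entry. The windows of *NCAPH* and *NCAPG2*, with the largest rises, the first window of *SMC4*, with the smallest, and those of the other condensin I subunits are shown because these are the genes the comparisons below turn on. Capitals mark the searched motifs on either strand, which were TTTGAA for the CHR core, CCAAT for the CCAAT box, and for the E2F site any of 4 spellings, namely TTCCCGC as its common form, TTGGCGC as another variant, TTCGCGC as a further variant and TTGCCGC as the last variant searched.
NCAPH (chr2:96335516-96335815, plus strand): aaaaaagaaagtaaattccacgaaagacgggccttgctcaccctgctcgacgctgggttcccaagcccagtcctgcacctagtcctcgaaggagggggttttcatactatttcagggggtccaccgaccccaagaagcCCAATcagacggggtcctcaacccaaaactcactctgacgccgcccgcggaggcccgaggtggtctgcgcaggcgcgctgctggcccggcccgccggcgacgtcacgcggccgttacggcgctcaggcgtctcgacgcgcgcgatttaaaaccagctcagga
NCAPG2 (chr7:158704755-158705054, minus strand): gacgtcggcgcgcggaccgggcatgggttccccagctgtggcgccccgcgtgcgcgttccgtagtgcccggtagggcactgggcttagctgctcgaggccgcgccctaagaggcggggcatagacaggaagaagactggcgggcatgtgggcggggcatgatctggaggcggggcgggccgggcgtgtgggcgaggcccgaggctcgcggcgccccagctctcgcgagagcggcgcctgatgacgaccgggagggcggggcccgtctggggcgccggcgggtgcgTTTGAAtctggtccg
NCAPG (chr4:17810729-17811028, plus strand): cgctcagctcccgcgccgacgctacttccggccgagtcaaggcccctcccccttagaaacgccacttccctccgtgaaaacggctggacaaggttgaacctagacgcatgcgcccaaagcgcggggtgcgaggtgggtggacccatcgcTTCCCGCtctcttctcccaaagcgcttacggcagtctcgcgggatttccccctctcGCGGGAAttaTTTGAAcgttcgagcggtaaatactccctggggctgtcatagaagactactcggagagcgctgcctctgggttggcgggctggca
NCAPD2 (chr12:6493852-6494151, plus strand): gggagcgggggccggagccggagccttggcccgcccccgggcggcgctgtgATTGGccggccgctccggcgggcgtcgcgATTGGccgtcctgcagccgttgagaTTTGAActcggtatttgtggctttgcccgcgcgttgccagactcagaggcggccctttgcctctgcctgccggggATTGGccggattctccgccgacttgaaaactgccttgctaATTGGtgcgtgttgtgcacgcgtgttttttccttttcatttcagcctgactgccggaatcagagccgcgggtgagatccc
SMC4 (chr3:160399400-160399699, plus strand): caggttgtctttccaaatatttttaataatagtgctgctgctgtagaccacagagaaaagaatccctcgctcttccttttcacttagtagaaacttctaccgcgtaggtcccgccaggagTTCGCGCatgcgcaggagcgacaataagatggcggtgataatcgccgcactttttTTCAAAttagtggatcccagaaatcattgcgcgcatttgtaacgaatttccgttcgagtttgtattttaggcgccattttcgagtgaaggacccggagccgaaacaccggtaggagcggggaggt

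The CHR core was present in a window of 6 of the 7 genes, against 15.2% of all 35116 windows in the table. It was missing from the window of *NCAPH*, which held a CCAAT box 112 bases before the start. The *NCAPD2* window held 4 CCAAT boxes as well as a CHR core, and *NCAPD3* also held both motifs in 1 of its windows. CCAAT was found in 3 of the 7 genes (34.6% of all windows) and an E2F form in 3, *SMC4*, *NCAPG* and *NCAPD3* (13.0% of all windows). The palindrome CACGTG, the E-box, was found in 0 of the 7 genes (7.26% of all windows). Motif counts are given per gene for the subunits and per window for the table, and genes with more than 1 window had more chances to hold a motif. Counted per window, the CHR core was in 6 of the 10 subunit windows, CCAAT in 3, an E2F form in 3 and the E-box in 0. No site was tested for binding.

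The libraries held 14317091 to 17084067 reads on genes, and mitochondrial transcripts took 4.29 to 5.89% of them. Levels are given in FPKM, the fragments of a gene scaled by its length and by the depth of the library. The *RRM2* mRNA itself averaged 8.92 ± 0.346 FPKM over the wild strain libraries and 48.4 ± 1.78 over the transduced ones (SD, n = 3), so that it rose by 2.43 on the log2 scale (limma, adjusted p = 1.107e-08). It was high in every library titled as overexpression, including replicates 2 and 3, whose genotype entries name other genes. Of 7 thyroid markers 2 were high enough to test, *PAX8* (56.3 to 70.8 FPKM) and *FOXE1* (3.10 to 4.41), and both fell (by 0.24 and 0.42 on the log2 scale), while thyroglobulin (*TG*) did not exceed 0.113 FPKM in any library and *NKX2-1* was at 0 in all 6. Of 5 epithelial markers the keratin genes *KRT8* (0.43) and *KRT18* (1.05) rose, and *KRT19*, *EPCAM* and *CDH1* were too low to test. Among the markers of blood, endothelial and stromal cells, *CD3E* and *DCN* were at 0 in all 6 libraries. The endothelial marker *PECAM1* averaged 0.924 FPKM over the wild strain and 0.0588 over the transduced cells, whose libraries held only 3 to 12 of its reads. *PECAM1* was high enough to test only through the wild strain libraries. A gene chosen that way can hardly appear as anything but lower, so no p is given for it. The stromal marker *COL1A1* fell from 0.816 to 0.501 FPKM (log2 fold change -0.61, limma, adjusted p = 0.0129). No other reported marker of these cells exceeded 0.575 FPKM. The part of these marker differences in the results was not tested.

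All 8 condensin subunit mRNAs were more abundant in RRM2-OE-TPC-1 than in TPC-1, by 1.38 to 2.00 times in the group means. Each passed the test used throughout, limma on log2(FPKM + 0.1) with Benjamini-Hochberg adjustment over all tested genes and a threshold of 0.05. On that scale the fold changes ran from 0.46 for *SMC4* to 0.99 for *NCAPH*, with a median of 0.76, against a median of 0.011 over all tested genes. The background was broad, since 67.6% of tested genes passed in either direction, 34.9% as higher and 32.7% as lower. A log2 fold change at least as large as that of *SMC4*, the smallest of the 8, was found in 19.6% of tested genes. In bulk RNA, more dividing cells in the culture and more mRNA in each cell cannot be told apart.

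None of the 8 genes had overlapping groups, the lowest RRM2-OE-TPC-1 library always lying above the highest TPC-1 library, as it did for 37.3% of tested genes (72.2% had separate groups in either direction). With a further threshold of 2-fold, 0 of 8 passed in limma (background 4.48% higher and 6.97% lower), although 8 of 8 had an unadjusted p under 0.05. *NCAPH*, at 0.99, lay just below that line. In 5 of the 13 alternative fits, voom among them, 1 of the 8 genes passed it.

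**Figure D1:**
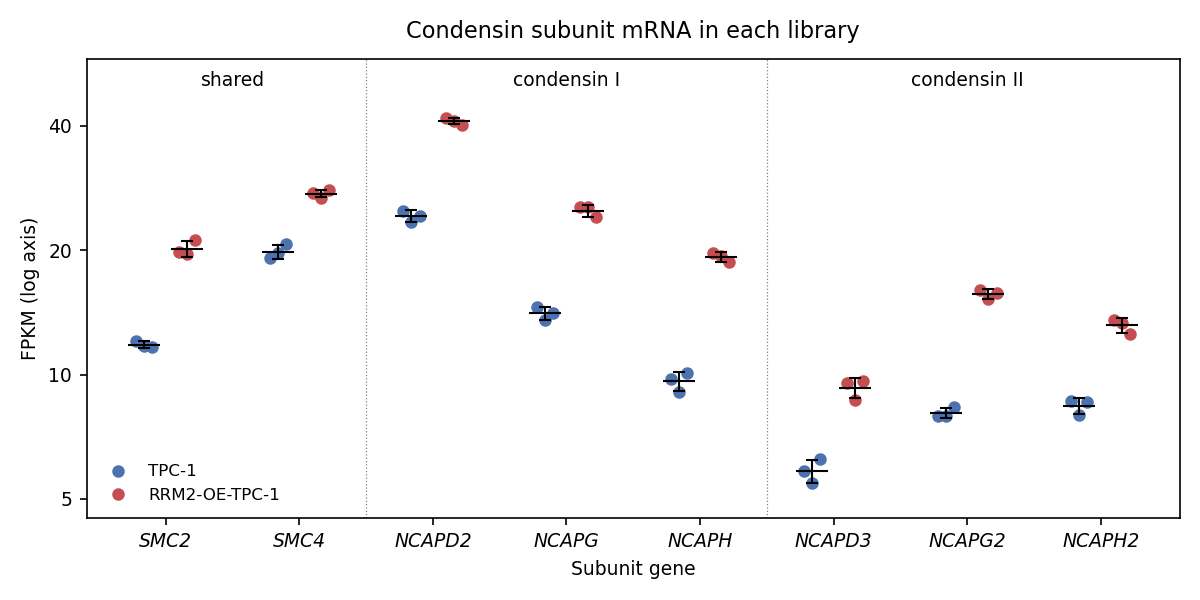
Level of each condensin subunit mRNA in the 6 libraries, in FPKM on a log axis, with a point for each library, a bar at each group mean and error bars of 1 SD. For all 8 genes the 3 RRM2-OE-TPC-1 libraries lie above the 3 TPC-1 libraries, with *NCAPD2* highest (23.3 to 41.7 FPKM) and *NCAPD3* lowest (5.47 to 9.63).

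Among the shared SMC ATPases, *SMC2* (chr9:104094260-104141417) was at 12.1, 11.7 and 11.7 FPKM in the TPC-1 libraries and at 19.8, 19.5 and 21.1 in the RRM2-OE-TPC-1 libraries. The groups were well apart, and *SMC2* rose by 0.76 on the log2 scale (SE 0.0428, adjusted p = 2.034e-06). *SMC4* (chr3:160399274-160434962) was at 19.1, 19.7 and 20.7 FPKM in TPC-1 and at 27.5, 26.8 and 27.9 in RRM2-OE-TPC-1. It had the higher FPKM of the pair in every library but rose less, by 0.46 (SE 0.0397, limma, adjusted p = 1.93e-05).

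The 3 subunits specific to condensin I all rose, the kleisin most. *NCAPD2* (chr12:6493356-6531955), the scaffold HEAT-repeat subunit, was at 24.9, 23.3 and 24.2 FPKM in TPC-1 and 41.7, 41.1 and 40.2 in RRM2-OE-TPC-1. *NCAPG* (chr4:17810902-17844862), the second HEAT-repeat subunit, was at 14.6, 13.6 and 14.1 FPKM against 25.4, 25.4 and 24.0. For both genes the spread within a group was small beside the gap between groups, with log2 fold changes of 0.76 for *NCAPD2* (SE 0.0365, adjusted p = 9.531e-07) and 0.82 for *NCAPG* (SE 0.0428, adjusted p = 1.441e-06). *NCAPH* (chr2:96335787-96373845), the kleisin of condensin I, was at 9.74, 9.07 and 10.1 FPKM in TPC-1 and at 19.7, 19.4 and 18.7 in RRM2-OE-TPC-1. Its group mean was 2.00 times as high in the overexpressing cells, the largest rise of the 8 (log2 0.99, SE 0.0493, adjusted p = 1.108e-06), larger than that of 95.5% of tested genes.

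In FPKM the condensin II subunits lay below their condensin I counterparts in every library, and they also rose. FPKM divides by the length of all annotated exons, so the order of different genes depends on the annotation. That length was 3278 bases for *NCAPH* and 3159 for *NCAPH2*, whose longest coding lengths were 2223 and 1818. *NCAPG2* (chr7:158631311-158704829), a HEAT-repeat subunit, was at 7.93, 7.96 and 8.35 FPKM in TPC-1 and at 16.0, 15.2 and 15.7 in RRM2-OE-TPC-1. It came next to *NCAPH* in size, with a rise of 0.95 (SE 0.0433, adjusted p = 7.59e-07). *NCAPD3* (chr11:134150119-134225454), the other HEAT-repeat subunit, had the lowest level of the 8 in both groups, at 5.83, 5.47 and 6.23 FPKM against 9.54, 8.68 and 9.63. *NCAPH2* (chr22:50508216-50523472), the kleisin of condensin II, was at 8.65, 7.96 and 8.58 FPKM in TPC-1 and 13.6, 13.3 and 12.5 in RRM2-OE-TPC-1. Both rose by less than *NCAPG2*, by 0.66 for *NCAPD3* (SE 0.0663, adjusted p = 4.882e-05) and 0.64 for *NCAPH2* (SE 0.0522, adjusted p = 1.463e-05). The counts behind these values were highest for *SMC4* in TPC-1 (2702 to 2802 reads per library) and for *NCAPD2* in RRM2-OE-TPC-1 (3910 to 4571). The thinnest were those of *NCAPH2*, with 423 to 722 reads, where counting error alone is up to 4.86%.

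Ordered by level per length, TPC-1 ran from *NCAPD2* through *SMC4*, *NCAPG*, *SMC2*, *NCAPH*, *NCAPH2* and *NCAPG2* to *NCAPD3*. Neighbours in that order were separate in their library values except *NCAPH2* and *NCAPG2*, whose ranges overlapped. In RRM2-OE-TPC-1 *NCAPG2* stood above *NCAPH2* with no overlap, and *SMC2* and *NCAPH*, separate in TPC-1, overlapped. In the order of fold changes only 1 of the 7 neighbouring pairs, *NCAPG2* and *NCAPG*, had groups of log2 ratios that did not overlap (difference 0.13, SE 0.0541, exact permutation p = 0.1, two-sided). With 3 libraries against 3, 0.1 is the smallest p that this test can give.

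Since the FPKM of both partners come from the same library, ratios between them do not depend on the library's scaling. Exact permutation tests over the 6 libraries were made for 4 ratios, and in 3 of them the groups did not overlap. *NCAPH* to *NCAPH2*, the 2 kleisins, went from 1.15 ± 0.0243 to 1.47 ± 0.0221, a log2 difference of 0.35 (SE 0.0216). *SMC2* to *SMC4* went from 0.597 ± 0.0326 to 0.735 ± 0.0195, a log2 difference of 0.30 (SE 0.0504). The condensin I kleisin and *SMC2* thus gained on their partners.

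For the HEAT-repeat subunits the direction was the opposite or was not resolved. *NCAPG* to *NCAPG2* went from 1.74 ± 0.0822 to 1.59 ± 0.0724, a log2 difference of -0.13 (SE 0.0541). *NCAPD2* to *NCAPD3* went from 4.14 ± 0.221 to 4.43 ± 0.286, with overlapping groups (log2 difference 0.096, SE 0.0698, exact permutation p = 0.3). That difference was 0.046 without RRM2-OE-TPC-1 replicate 2 and 0.051 without TPC-1 replicate 3. The other 3 ratios each gave an exact permutation p of 0.1, the smallest this design allows, or 0.133 after Benjamini-Hochberg adjustment over the 4 ratios, so none could pass 0.05.

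**Figure D2:**
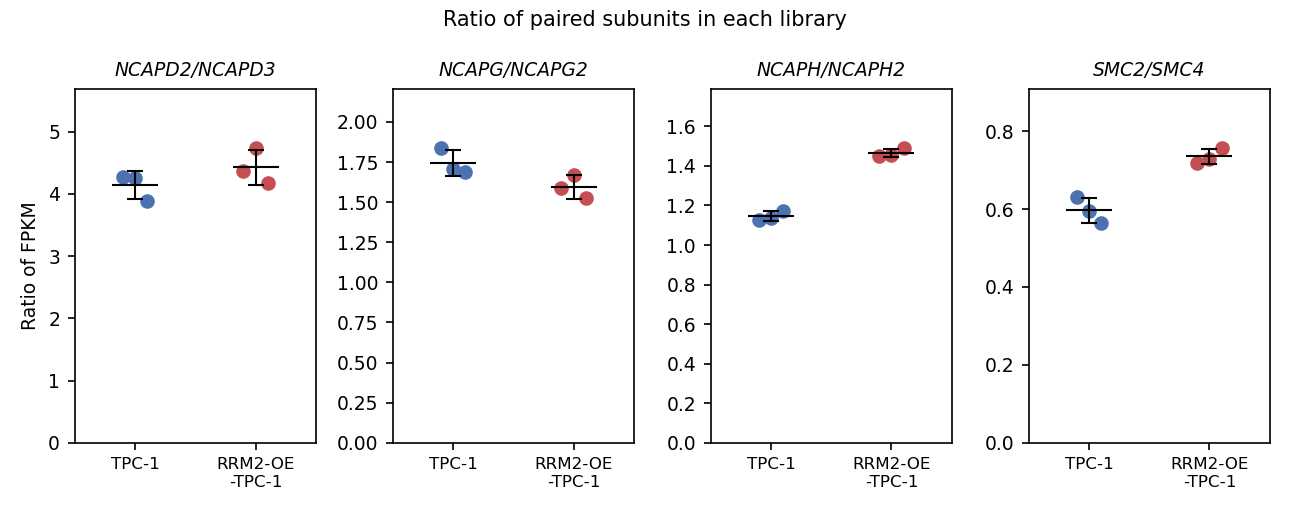
Ratio of the FPKM of paired condensin subunits in each library, with a panel for each pair, an axis that starts at 0, points for libraries, a bar at each group mean and error bars of 1 SD. The 3 RRM2-OE-TPC-1 points lie above the TPC-1 points for *NCAPH*/*NCAPH2* and *SMC2*/*SMC4*, below them for *NCAPG*/*NCAPG2*, and overlap them for *NCAPD2*/*NCAPD3*.

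Summed over the 3 specific subunits of each complex, condensin I mRNA was at 46.0 to 49.3 FPKM in TPC-1 and 82.9 to 86.8 in RRM2-OE-TPC-1, and condensin II mRNA at 21.4 to 23.2 and 37.2 to 39.1. Condensin I made up 67.6 to 68.7% of this sum in TPC-1 and 68.6 to 69.8% in RRM2-OE-TPC-1. These ranges overlapped narrowly, through TPC-1 replicate 1 (68.73%) and RRM2-OE-TPC-1 replicate 3 (68.63%). This share of summed mRNA, unlike the ratio of the kleisins, was thus not separated by group. The sum gives most weight to *NCAPD2*, the subunit with the highest FPKM. No protein or complex was measured, so the balance between the complexes themselves was not tested.

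Other genes of cell division were also higher in RRM2-OE-TPC-1. Of 52 genes of the G2 and M phases, the condensin subunits left out, 45 rose, 3 fell and 4 did not pass, with a median of 0.70. Their summed level was 1105 to 1157 FPKM in TPC-1 and 2031 to 2038 in RRM2-OE-TPC-1. Of 41 tested genes of the S phase, 41 rose, with a median of 0.95. The condensin median of 0.76 lay between these medians.

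When each subunit was set against the mean log2 level of the 52 G2 and M genes in the same library, which rose by 0.65, the subunits fell on either side of it. *NCAPH* (0.35, SE 0.0381) and *NCAPG2* (0.30, SE 0.0282) lay above the list mean and *SMC4* below it (-0.18, SE 0.0302), each with no overlap between groups. *SMC2* (0.12), *NCAPD2* (0.11) and *NCAPG* (0.17) also lay above it without overlap. For these 6 genes the exact permutation p was 0.1, the smallest possible, and 0.133 after adjustment over the 8 subunits. *NCAPD3* (0.010, SE 0.0594) and *NCAPH2* (-0.0074, SE 0.0465) overlapped between groups (exact permutation p = 1).

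The sizes depended on how the list was summarised. The alternative was the list's median log2 level in each library, which is not its median fold change of 0.70. Against that level every subunit was lower than against the mean, with *NCAPH* at 0.19, *NCAPG2* at 0.14 and *SMC4* at -0.34. *NCAPG* was then at 0.015, and *SMC2* (-0.042) and *NCAPD2* (-0.045) lay below that level, although their own fold changes were 0.82, 0.76 and 0.76. *NCAPD3* (-0.15) and *NCAPH2* (-0.16) lay below it as well, each with an exact permutation p of 0.1, the smallest possible.

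**Figure D3:**
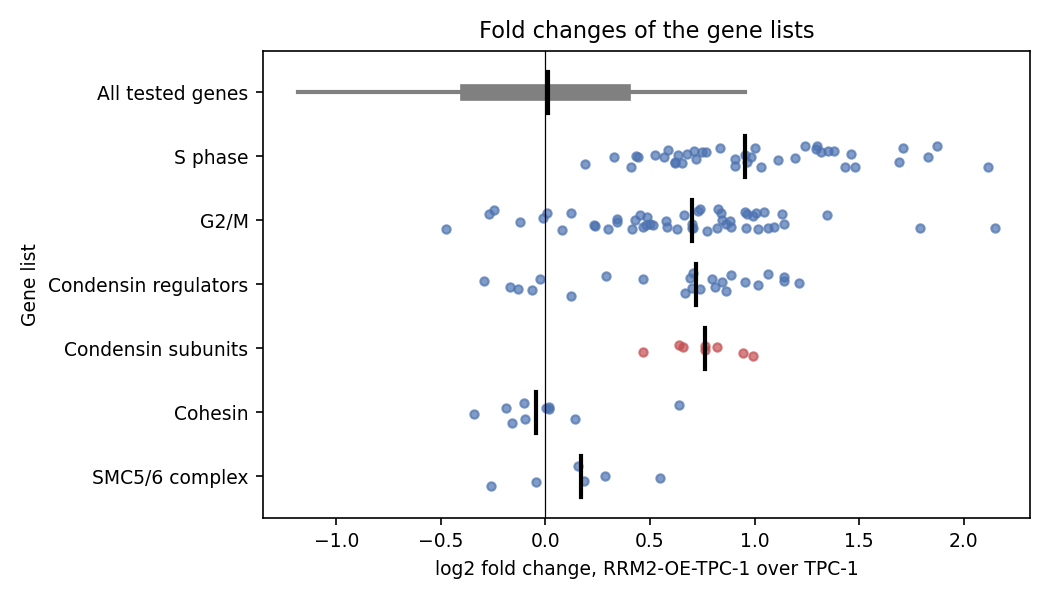
Log2 fold changes (RRM2-OE-TPC-1 over TPC-1, log2(FPKM + 0.1) scale) of the genes of each list, with a point for each tested gene and a black bar at each median. The grey bars for all tested genes run from the 5th to the 95th percentile (thin) and over the middle 50% (thick). The 8 condensin subunits lie between 0.46 and 0.99, within the range of the G2 and M genes, while cohesin genes lie on both sides of 0.

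The regulators of condensin include the mitotic kinases that phosphorylate it, the proteins that load it or oppose it, and the factors that work beside it on chromosomes. Of 24 such genes 18 rose, 2 fell and 4 did not pass, with a median of 0.72, and 10 of the 24 also belong to the G2 and M list. The 5 with the largest change were *CCNA2* (1.21), which encodes a cyclin of the S and G2 phases, *INCENP* (1.14), the scaffold of the chromosomal passenger complex, *CDCA2* (1.14), which brings a phosphatase to chromosomes at mitotic exit, and the spindle checkpoint kinase genes *TTK* (1.07) and *BUB1* (1.02). *INCENP*, for instance, was at 9.11, 9.60 and 9.10 FPKM in TPC-1 and at 20.8, 20.3 and 20.7 in RRM2-OE-TPC-1 (SE 0.0394, limma, adjusted p = 2e-07).

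The 2 regulators that fell were *MCPH1* and *TOP2B*. *MCPH1* encodes microcephalin, which keeps condensin II off chromosomes in interphase. It was at 2.67, 2.66 and 2.39 FPKM in TPC-1 and at 2.00, 2.15 and 2.09 in RRM2-OE-TPC-1, without overlap (log2 fold change -0.29, SE 0.0844, limma, adjusted p = 0.01475). *TOP2B*, the topoisomerase II gene that is expressed outside division as well, was at 39.3 ± 2.03 and 35.0 ± 2.01 FPKM (log2 fold change -0.17, limma, adjusted p = 0.02289). That call was lost without TPC-1 replicate 2 (adjusted p = 0.07395), TPC-1 replicate 3 (0.06441) or RRM2-OE-TPC-1 replicate 2 (0.07461), and with no filter (0.06998). The 4 regulators that did not pass were *SGO1* (0.29), *CSNK2A1* (-0.024), *KMT5A* (-0.065) and *PHF8* (-0.13). A further 5, picked from those that rose, are named here for their roles and after their values were seen. They were *CDK1* (0.86) and *PLK1* (0.67), kinases that activate condensin in mitosis, *AURKB* (0.74), which promotes condensin I loading, *KIF4A* (0.69), the chromokinesin that binds condensin I, and *TOP2A* (0.71), the topoisomerase of mitotic chromosomes.

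Cohesin and the SMC5/6 complex are the other SMC complexes of human cells, built on the same ring plan, with roles in sister chromatid cohesion and loop formation and in DNA repair. Of 10 cohesin genes 2 rose, 2 fell and 6 did not pass, with a median of -0.046. Over all tested genes 34.9% passed as higher and 32.7% as lower. The ATPase gene *SMC1A* rose from 15.6 ± 0.145 to 24.4 ± 0.941 FPKM (0.64, SE 0.0393, limma, adjusted p = 3.171e-06), a size within the range of the condensin subunits. Its partner *SMC3* was at 25.6 ± 0.964 and 23.8 ± 0.904 FPKM (-0.10, limma, adjusted p = 0.0683). *SMC3* passed as lower with library totals (adjusted p = 0.01725), with voom (0.0491) and without RRM2-OE-TPC-1 replicate 1 (0.03409). The kleisin *RAD21* was at 72.3 ± 0.914 and 73.1 ± 1.78 FPKM (0.016, limma, adjusted p = 0.6806).

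Of the genes that load and release cohesin, the loader *NIPBL* fell by 0.34 (limma, adjusted p = 6.396e-04) and the release factor *WAPL* fell by 0.19 (limma, adjusted p = 0.007014). *PDS5B* rose by 0.14 (limma, adjusted p = 0.0465), a call that was lost whichever library was left out (adjusted p from 0.06323 to 0.1153). *STAG1* (0.0027), *STAG2* (-0.096), *PDS5A* (0.015) and *MAU2* (-0.16) did not pass. Of 6 tested SMC5/6 genes 3 rose, *SMC5* (0.55), *SMC6* (0.29) and *NSMCE4A* (0.19), 1 fell, *NSMCE1* (-0.26), and *NSMCE2* (-0.045) and *NSMCE3* (0.16) did not pass, with a median of 0.17. *EID3* was too low to test. Since 67.6% of all tested genes passed in either direction, these calls do not set the SMC5/6 genes apart. The calls of *NSMCE1* and *NSMCE4A* were lost in some fits that left out a library, *NSMCE1* without TPC-1 replicate 3 (adjusted p = 0.05153) or RRM2-OE-TPC-1 replicate 2 (0.05413), and *NSMCE4A* without TPC-1 replicate 1 (0.09816), TPC-1 replicate 3 (0.08356), RRM2-OE-TPC-1 replicate 1 (0.07631) or RRM2-OE-TPC-1 replicate 3 (0.0932). *NSMCE4A* also did not pass with no filter (0.06384) or with library totals (0.125), which left 2 SMC5/6 genes higher.

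**Figure D4:**
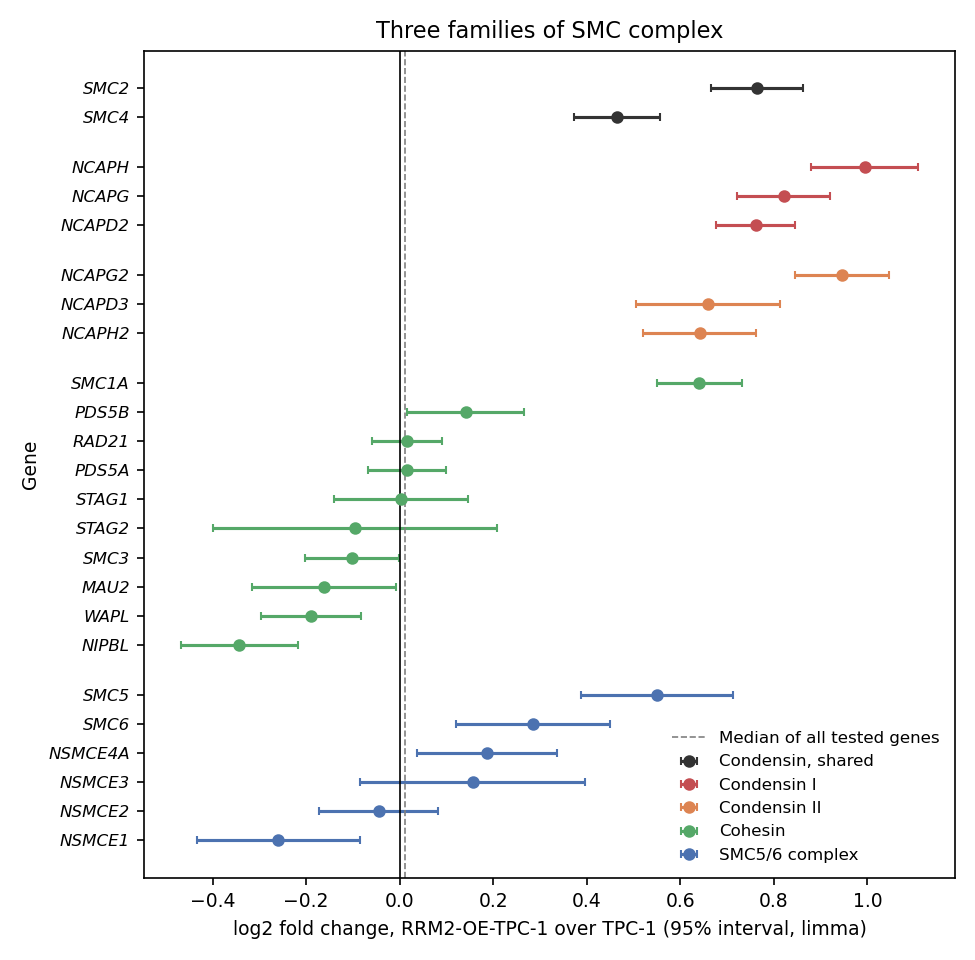
Log2 fold change of each tested gene of the condensin, cohesin and SMC5/6 lists (RRM2-OE-TPC-1 over TPC-1), with the unadjusted 95% interval from limma and a dashed line at the median of all tested genes (0.011). The cohesin list includes genes that load and release cohesin. All 8 condensin intervals lie above 0, whereas among cohesin genes *SMC1A* stands at 0.64 and the others lie between -0.34 and 0.14.

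Ratios of condensin to cohesin genes within a library, chosen after the values were seen, put numbers on this difference. *NCAPH* to *RAD21* went from 0.133 ± 0.00795 to 0.264 ± 0.00912 (log2 difference 0.99, SE 0.0583) and *NCAPH2* to *RAD21* from 0.116 ± 0.00645 to 0.180 ± 0.00851 (0.63, SE 0.0614). *SMC2* to *SMC3* went from 0.463 ± 0.0221 to 0.847 ± 0.0623 (0.87, SE 0.0726). *SMC4* to *SMC1A* moved the other way, from 1.27 ± 0.0588 to 1.12 ± 0.0299 (-0.18, SE 0.0446). The direction of each ratio follows from the fold changes above, which were known when the pairs were chosen. In each of the 4 ratios the groups did not overlap, and the exact permutation p was 0.1, the smallest possible, before and after adjustment over the 4. These ratios restate the values above and are no separate evidence.

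By Euclidean distance over the 6 libraries, each gene centred on its own mean, the 5 protein-coding genes of 11443 nearest to the mean condensin profile were *MDH1* (0.0258), *MYBBP1A* (0.0318), *CFL1* (0.0439), *LAP3* (0.048) and *CEP170B* (0.0515). *MDH1* encodes cytosolic malate dehydrogenase, *CFL1* the actin-severing protein cofilin and *LAP3* a leucine aminopeptidase. The distances of the 8 subunits to their own mean profile ran from 0.0552 (*NCAPD2*) to 0.368 (*SMC4*). A profile of 2 groups is mostly their difference (0.76), so these are genes with a rise of like size.

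The 8 genes lie on 8 chromosomes, among neighbours whose median changes were smaller than their own or of opposite sign. Among the 12 to 93 tested genes within 5 Mb of each subunit gene, the median log2 fold change was -0.56 around *NCAPD3* and -0.28 around *NCAPG2*, and the highest was 0.20, around *SMC4*. Exons of genes on the opposite strand overlap those of *SMC4* (*IFT80* and *TRIM59*), *NCAPD2* (*MRPL51*), *NCAPG* (*LCORL*) and *NCAPD3* (*JAM3*, *VPS26B* and an antisense RNA). Whether reads were counted by strand was not given in the sources used here, so such reads may be split or lost. *LCORL* shares 33.1% of the exon length of *NCAPG* but stood at a mean of 1.54 FPKM and had a log2 fold change of -0.39. Of the exon length of *SMC4*, *TRIM59* shares 18.5% (2.3 FPKM, log2 fold change -0.15) and *IFT80* 7.18% (2.24 FPKM, -0.79). Their part in the *SMC4* value was not tested. *MRPL51* stood at 45.1 FPKM with a log2 fold change of 0.73 and shares 7.49% of the exon length of *NCAPD2*, and its part in the *NCAPD2* value was not tested. The exons of *SMC2*, *NCAPH*, *NCAPG2* and *NCAPH2* overlap no other gene in the annotation.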

How the data were processed

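Per the labels and the study's methods, reads were filtered with fastp, aligned to GRCh38.p14 with HISAT2 2.0.5 and counted with featureCounts 1.5.0, and the notes also name DESeq2 1.20.0. The authors deposited FPKM for each gene and library, with no pooling of replicates. Gene positions match GENCODE 29. The labels describe rRNA depletion with RNase R and the methods poly(A) selection, so the RNA selection is uncertain. The series calls the libraries biological triplicates. RRM2-OE-TPC-1 replicates 2 and 3 were closer to each other (chi-square per degree of freedom over tested genes 1.818) than to replicate 1 (5.301 and 5.995). The pairs of TPC-1 libraries lay at 3.048 to 3.23. The sources used here do not describe separate transductions, so the spread between libraries may not cover variation between them.

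The deposited FPKM returned whole reads for 100% of values (tolerance 0.01), which gave the depths of 14317091 to 17084067 reads on genes. The depth used by the authors matched the median-of-ratios size factor to within 0.999 to 1.001, not the read total.

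Genes with at least 0.5 FPKM and 10 reads in at least 3 libraries were tested with limma 3.58.1 (R 4.3.3, trended moderated test, all 6 libraries) on log2(FPKM + 0.1), which understates changes of low genes. A gene passed at an adjusted p of 0.05 or less. Ratios were tested with exact two-sided permutation tests (scipy 1.17.1). The fit was also run on simulated data in which only a small part of the genes changed, unlike here. A first requirement on how many small changes it calls was not met and was then relaxed, with the fit unchanged. No support is drawn from that run. The 8 genes and all lists were chosen with earlier results of these data known. Named genes were *RRM2*, the 8 subunits, cohesin and SMC5/6 genes, the 5 regulators with the largest change and all that fell, the 5 nearest profiles and markers, of which 1 is not reported here. Outside that rule, 5 further regulators and the 4 regulators that did not pass were named after their values were seen. So were *TUBB4B* and the genes that overlap subunit exons. 1 regulator, *M18BP1*, was matched through a RefSeq synonym. Alternatives were other pseudocounts, no filter, other scalings, a replicate block, each library left out and voom on the recovered reads.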

Additional observations from a re-analysis of the deposited data

How the results depend on the processing

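In 13 alternative fits all 8 subunits stayed higher and passed, with a largest adjusted p of 4.369e-04 (limma, 104 of 104 values). With the 2-fold threshold added, the counts of higher genes were 0 subunits, 5 regulators, 0 cohesin, 0 SMC5/6, 10 G2 and M, 18 S phase and 610 of all genes, and those of lower genes were 0 in the regulator, cohesin, SMC5/6 and G2 and M lists and 950 of all genes. The cohesin count of higher genes was 1 with no filter, with library totals, with the replicate block and in every fit that left out a library, and its count of lower genes was 4 with library totals and with voom. The regulator count of lower genes was 1 with no filter and 1 to 2 with a library left out, and the SMC5/6 count of lower genes was then 0 to 1. Leaving out a library moved the difference of *NCAPD3* to the G2 and M list from -0.020 to 0.058 and that of *NCAPH2* from -0.035 to 0.031.

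The following differences turned. Against the median log2 level of the G2 and M list, *SMC2* was at -0.042, *NCAPD2* at -0.045 and *NCAPD3* at -0.15, and *NCAPH2* moved to -0.16. With a pseudocount of 1 *NCAPD3* was at -0.029, and with a library left out it was at -0.020, -0.014 and -0.013, while *NCAPH2* was then at 0.014 and 0.031. *RAD21* was at -0.042 with library totals and ranged from -3.3e-06 (without RRM2-OE-TPC-1 replicate 1) to 0.035 with a library left out. The cause was not tested. Ratios of FPKM + 1 moved *NCAPD2* to *NCAPD3* to 0.15 and *NCAPG* to *NCAPG2* to -0.092. Replicate numbers did not pair the samples (correlations of same-numbered deviations -0.055 to -0.006), and the replicate block left *PDS5B* (adjusted p = 0.09637) and *NSMCE4A* (0.06441) short of the threshold in limma, 8 of 8 subunits higher and 4616 of all genes higher. Count models on the recovered reads were planned but not run, since the deposited unit is FPKM, and voom stands in for them, chosen after seeing the data. Library totals lowered the median of all genes from 0.011 to -0.045 and that of the 8 subunits to 0.70. Depth limits *NCAPH2*, the subunit with the fewest reads, to a counting error of up to 4.86%.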
